A study of Mus musculus with 4 samples.

Results

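The genes described here are 37 mouse genes of S phase and DNA replication, a list defined by the known function of its members. They cover the replicative helicase and its activators (Mcm2 to Mcm7, Mcm10, Cdc45, Gins1, Gins2), origin licensing (Orc1, Orc6, Cdc6, Cdt1), the polymerases and primase (Pola1, Pold1, Pole, Prim1, Prim2), the sliding clamp and its loader (Pcna, Rfc1 to Rfc5), nucleotide supply (Rrm1, Rrm2, Tyms), the completion and packaging of new DNA (Fen1, Lig1, Chaf1a, Chaf1b, Uhrf1, Slbp) and regulators of S phase entry (E2f1, Ccne1, Ccne2). Probes were matched to these symbols through RefSeq accessions, which gave 44 probes for 36 of the 37 genes. No probe was matched to Gins1. The fit held 15004 features, and 35 of the genes were among them.

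RNA came from intact ureteric buds of mouse kidney, the epithelial outgrowths that branch into the collecting duct system. Buds in one group were treated with angiotensin II (AngII, 1e-05 M) for 6 h, and buds in the other were kept in media alone for the same time. All buds of both groups sat in matrix gel in DMEM/F12 with 10% serum, GDNF at 100 ng/ml and HGF at 100 ng/ml, both of which are growth factors for the branching bud, so the control culture was growth-stimulated too. The sources used here do not give strain, age or the number of buds or embryos behind each RNA. Per the labels there were 2 numbered pairs, each of an AngII and a media RNA. Every pair was read on 2 arrays of 1 slide, with AngII RNA in Cy5 and media RNA in Cy3 on the first and the dyes exchanged on the second.

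Replication origins are licensed in G1, when the origin recognition complex, Cdc6 and Cdt1 load rings of the Mcm2 to Mcm7 proteins onto DNA. At the start of S phase Cdc45 and the GINS complex turn each ring into a moving helicase, primase and polymerase alpha start each strand, and the Pcna clamp, placed by the Rfc loader, holds the main polymerases on DNA. Many of these genes are transcribed under E2F factors as cells leave G1, and branching ureteric buds proliferate, above all at their tips.

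A log2 ratio below 0 here means less signal from AngII RNA than from media RNA. The SD of this ratio over all features was 0.38, whereas the half-difference of pair 1 and pair 2 had an SD of 0.0376, against 0.037 for the contrast that holds array noise alone. The pairs thus differed by no more than the noise of the arrays and were counted as 1 sample of each RNA. Adjusted p-values are from limma with Benjamini-Hochberg adjustment over all 15004 features. They reflect how far the means of pair 1 and pair 2 lay apart, with an error drawn largely from all features. The dye orientations were averaged first, so the gap between them is not in these p-values or standard errors. Pcna, for example, had an SD of 0.49 over its 4 arrays but a standard error of 0.034. The labels call the numbered RNAs biological replicates, and whether their cultures were independent cannot be told from these values. With the pairs counted as 1 sample of each RNA, the p-values speak for these RNAs alone. Arrays of one dye orientation correlated across features at 0.962 and 0.973, but the arrays of a dye swap at only 0.673 and 0.681. Most values of the replication genes are therefore given by orientation or as a range over the arrays, those of other genes mostly as the mean.

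Transcripts of replication genes were lower more often than higher in the AngII RNA. Of the 35 genes tested, 27 passed an adjusted p under 0.05 in limma, a share of 77.1% where 77.2% of all features passed, so passing does not set these genes apart. In direction, 22 of the 35 were lower (62.9%, against 38.1% of all features), 5 were higher (14.3%, against 39.1%) and 8 did not pass. Among the genes that passed, 17 were below 0 on all 4 arrays (48.6%, against 27.4% of all features) and 3 were above 0 on all 4 arrays (8.57%, against 30.2%). The median log2 ratio of the 35 genes was -0.17, and that of all features was 0.00. On the arrays with AngII in Cy5 the median of the 35 genes was -0.27 for pair 1 and -0.21 for pair 2, and with AngII in Cy3 it was -0.09 and -0.14. The median of all features on the same arrays was 0.03, 0.04, -0.02 and -0.03.

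The changes were small. The median absolute log2 ratio of the genes was 0.18, close to the 0.19 of all features, and the standard error of a gene's ratio lay between 0.034 and 0.044. Mcm3, Chaf1a and Fen1 were at least 1.5-fold lower, which makes 3 of 35 (8.57%) against 5.39% of all features, and none of the 35 differed by 2-fold or more in either direction. All 35 genes were well above background in both RNAs on all 4 arrays. The counts were smaller where the difference between the dye orientations entered the error. With the replicate number as a block in limma, Mcm3, Mcm5, Mcm7, Mcm10, Gins2, Cdc6, Prim2, Fen1, Lig1 and Chaf1a passed as lower and none passed as higher (0 also at an unadjusted p under 0.05). In that fit 14.7% of all features were lower and 16.3% higher. The other 12 lower genes and all 5 higher genes did not pass there, with adjusted p from 0.0559 to 0.782. A limma fit of a single pair holds only the 2 arrays of its dye swap, so the difference between the dye orientations entered its error as well. Fewer of the genes and fewer of all features passed there too. The median log2 ratio of the 35 genes was -0.19 with pair 2 alone and -0.15 with pair 1 alone. That of all features was 0.00 in both. With a dye term for each feature 22 genes were lower and 5 higher, as in the first fit (37.4% and 38.6% of all features).

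**Figure D1:**
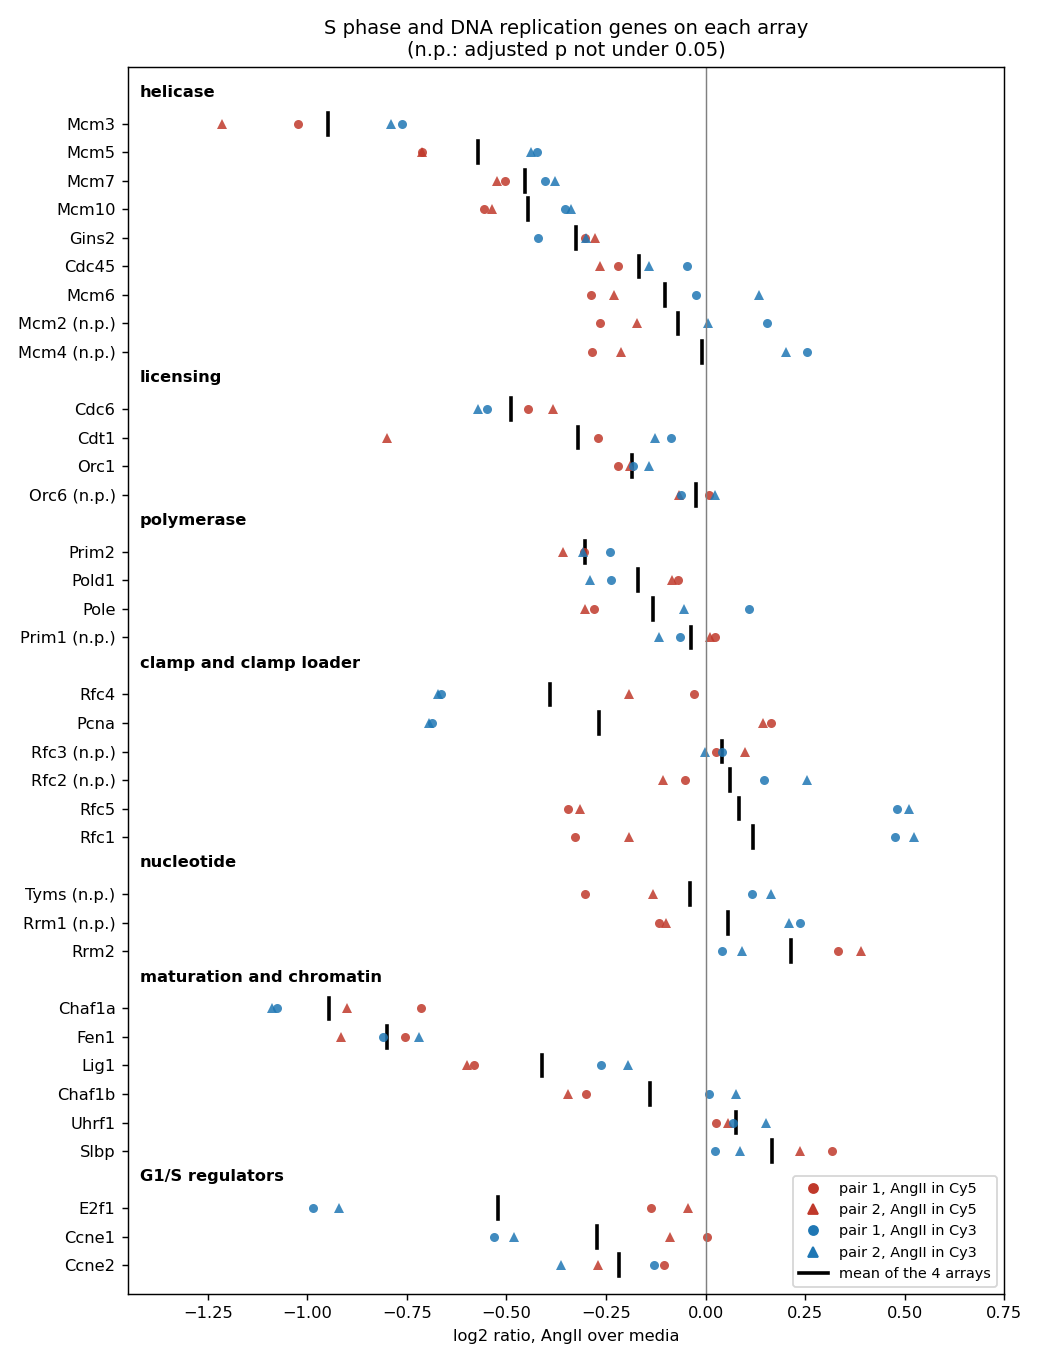
Log2 ratio of AngII over media (x axis) of each of the 35 tested genes (rows, grouped by role) on each of the 4 arrays, with AngII in Cy5 in red, AngII in Cy3 in blue, pair 1 as circles, pair 2 as triangles and the mean of the 4 arrays as a black bar. Mcm3, Fen1 and Chaf1a have all 4 arrays below -0.70, whereas Rfc1, Rfc5 and Pcna have their red and blue points on opposite sides of 0.

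Promoters are shown for 7 genes with low, middle and high ratios, to give the sequence in which E2F and CCAAT motifs occurred. Windows of 300 bases, from 250 before to 50 after the start of each gene, were taken from RefSeq (GRCm38.p6) for 30 of the 37 genes. Mcm4, Prim2, Pole, Ccne2, Gins1, Gins2 and Rfc2 were not matched. The E2F motif was read as TTTCCCGC, TTTGGCGC, TTTCGCGC or TTTGCCGC, and the CCAAT box as CCAAT, each on both strands. An E2F match stood in the window of 12 of 30 replication genes (40.0%), in 423 of 9144 tested genes with a window (4.63%) and in 704 of 27025 genes of the whole table (2.60%). A CCAAT match stood in 63.3%, 42.9% and 41.1% of these sets. Another motif, the cell cycle homology region read as TTTGAA or TTCGAA on both strands, stood in 16.7%, 16.2% and 21.7%. An E2F match was present in 9 of the 18 genes with a window that were lower and in 2 of the 11 tested genes that were not. The CCAAT match ran the other way, in 9 of 18 lower genes (50%) and 9 of 11 others (81.8%), and the cell cycle homology region stood in 16.7% and 18.2%. The 11 tested genes with a match had a median log2 ratio of -0.32, and the 18 without had -0.10. In each 160-base stretch below, which ends at the base before the gene's start, capitals mark E2F and CCAAT matches, written CCAAT or, on the other strand, ATTGG. Over the windows of all 30 genes 1 E2F match overlapped a CCAAT match, in Mcm7, which is not shown.
Mcm3, chr1:20820313-20820472, minus strand: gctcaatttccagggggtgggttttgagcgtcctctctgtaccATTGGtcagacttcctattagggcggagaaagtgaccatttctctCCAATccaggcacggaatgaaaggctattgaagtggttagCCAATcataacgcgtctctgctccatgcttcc
Mcm5, chr8:75109349-75109508, plus strand: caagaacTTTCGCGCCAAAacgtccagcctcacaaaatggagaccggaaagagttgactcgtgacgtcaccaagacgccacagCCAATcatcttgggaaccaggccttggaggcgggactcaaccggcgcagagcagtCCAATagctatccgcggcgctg
Mcm6, chr1:128359706-128359865, minus strand: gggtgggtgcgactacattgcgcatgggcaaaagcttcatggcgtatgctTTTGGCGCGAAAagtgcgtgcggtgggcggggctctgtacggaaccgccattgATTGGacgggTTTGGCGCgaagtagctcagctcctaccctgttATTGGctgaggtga
Cdc6, chr11:98907991-98908150, plus strand: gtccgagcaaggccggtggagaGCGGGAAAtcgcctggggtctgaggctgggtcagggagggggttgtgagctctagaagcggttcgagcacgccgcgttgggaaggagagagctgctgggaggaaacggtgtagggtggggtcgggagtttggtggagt
Orc1, chr4:108579294-108579453, plus strand: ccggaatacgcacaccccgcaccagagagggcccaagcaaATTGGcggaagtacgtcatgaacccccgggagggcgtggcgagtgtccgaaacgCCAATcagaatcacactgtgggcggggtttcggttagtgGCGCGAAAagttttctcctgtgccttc
Chaf1a, chr17:56040256-56040415, plus strand: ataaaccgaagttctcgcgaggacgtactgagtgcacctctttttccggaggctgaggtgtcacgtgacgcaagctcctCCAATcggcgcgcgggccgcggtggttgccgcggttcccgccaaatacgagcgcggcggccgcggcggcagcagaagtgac
Rrm2, chr12:24708094-24708253, plus strand: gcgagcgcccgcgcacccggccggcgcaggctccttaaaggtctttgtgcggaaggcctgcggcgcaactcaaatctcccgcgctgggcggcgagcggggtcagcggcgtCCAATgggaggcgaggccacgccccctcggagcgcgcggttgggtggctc

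The stretches show that a match and a low ratio did not always go together. Mcm5 has overlapping E2F matches that begin 153 and 149 bases before its start and a log2 ratio of -0.57, while Mcm6 has overlapping matches at 110 and 106 bases, another at 47, and a log2 ratio of -0.10. The E2F matches of Mcm3 lie 20 and 39 bases after its start, outside the stretch shown, which holds CCAAT matches at 117, 72 and 32 bases before the start. Cdc6 has its E2F match 138 bases and Orc1 27 bases before the start. Chaf1a and Rrm2, which differed in opposite directions, hold a CCAAT match and none of the E2F letters searched, and Fen1 holds neither. A match describes these letters in this window and says nothing about binding in the buds.

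The helicase genes had the lowest median of the groups over all 4 arrays, but not in every subset or processing. With AngII in Cy5 alone the maturation and chromatin genes (-0.46) and the licensing genes (-0.31) lay below them (-0.29). With AngII in Cy3 alone the G1/S regulators did (-0.51 against -0.35). Without pair 1 the G1/S regulators (-0.32) and the licensing genes (-0.31) lay below the helicase genes (-0.29). With processed signals the licensing genes did (-0.41 against -0.36). Of 9 helicase genes tested, 7 were lower, none was higher and 2 did not pass. Their median log2 ratio was -0.32, and their medians on single arrays ran from -0.35 to -0.28. The Mcm2 to Mcm7 proteins form a single ring of 6 subunits, yet their transcripts differed widely, from -0.95 for Mcm3 to -0.01 for Mcm4.

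Mcm3 had log2 ratios of -1.02 and -1.21 on the arrays with AngII in Cy5 (pairs 1 and 2) and of -0.76 and -0.79 with AngII in Cy3. It was lower on all 4 arrays, by 1.93-fold on average (log2 ratio -0.95, SE 0.036, limma adjusted p = 1.84e-18), and its mean log2 intensity was 10.17 in AngII RNA and 11.12 in media RNA. Mcm5 had -0.71 on both arrays with AngII in Cy5 and -0.42 and -0.44 with AngII in Cy3. It too was lower on each array, by 1.49-fold (limma adjusted p = 2.76e-14). Mcm7 had -0.50 and -0.52, then -0.40 and -0.38 with the dyes swapped, a mean of -0.45 (limma adjusted p = 3.45e-12). In each of the 4 arrays Mcm3 had the lowest ratio of the ring, Mcm5 the next and Mcm7 the next.

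The other ring subunits showed no such order. Mcm6 passed with a mean of -0.10 (limma adjusted p = 0.0119), from ratios of -0.29 and -0.23 with AngII in Cy5 and -0.02 and 0.13 with AngII in Cy3. Mcm2 had -0.26 and -0.17 in the first orientation and 0.15 and 0.01 in the second, and did not pass (limma adjusted p = 0.0672). Mcm4 had -0.29 and -0.21, then 0.26 and 0.20, and did not pass (limma adjusted p = 0.802). In all 3 of these genes the orientations lay on different sides of 0 in their means, at -0.26 and 0.05 for Mcm6, -0.22 and 0.08 for Mcm2, and -0.25 and 0.23 for Mcm4.

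Mcm10, Gins2 and Cdc45, which act with the ring when it becomes a moving helicase, were lower on every array. Mcm10, which binds the helicase and recruits polymerase alpha, had log2 ratios of -0.56 and -0.54 with AngII in Cy5 and -0.35 and -0.34 with AngII in Cy3, a mean of -0.45 (limma adjusted p = 4.86e-12). Gins2, a subunit of the GINS complex, had -0.30 and -0.28, then -0.42 and -0.30, a mean of -0.32 (limma adjusted p = 3.53e-09). Cdc45, the remaining partner of the active helicase, fell less, by 0.17 on the log2 scale (limma adjusted p = 9.5e-05), with a range of -0.26 to -0.05 over the arrays.

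**Figure D2:**
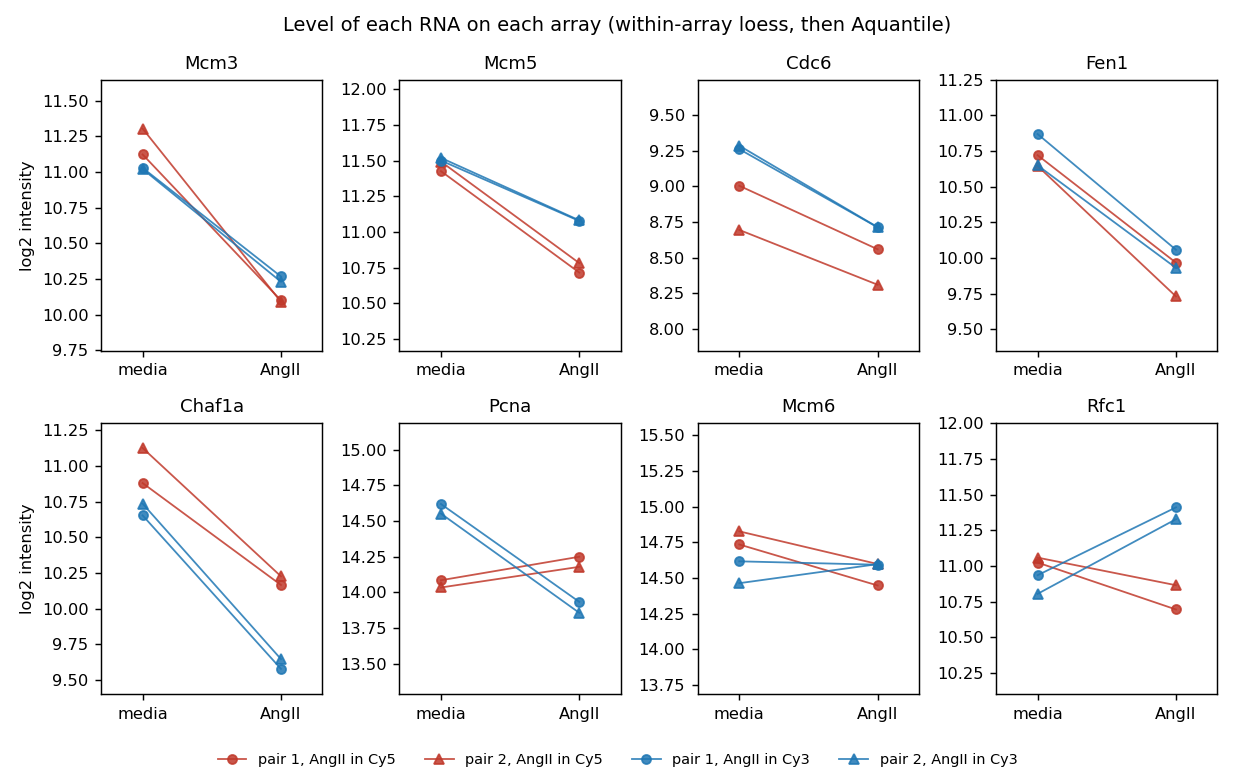
Log2 intensity (y axis, a range of equal width in each panel but a different start) of media and AngII RNA on each of the 4 arrays for 8 genes, with lines joining the RNAs read on the same array, AngII in Cy5 in red and AngII in Cy3 in blue. All 4 lines fall for Mcm3, Mcm5, Cdc6, Fen1 and Chaf1a, whereas the red and blue lines of Pcna and of Rfc1 run in opposite directions.

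Of the 4 licensing genes 3 were lower and 1 did not pass, and the median log2 ratio was -0.25. Cdc6, the ATPase that helps load the Mcm ring, had -0.45 and -0.38 with AngII in Cy5 and -0.55 and -0.57 with AngII in Cy3. It was 1.40-fold lower on average (log2 ratio -0.49, SE 0.034, limma adjusted p = 7.86e-13), all arrays lay below 0, and a dimmer Cdc6 probe gave -0.32. Cdt1, the loading factor that works with Cdc6, had -0.27 and -0.80, then -0.09 and -0.13. All 4 arrays were below 0 (mean -0.32, limma adjusted p = 2.98e-07, and 0.126 with the replicate block), but the array of pair 2 with AngII in Cy5 stood apart from the other 3. Without pair 2 Cdt1 did not pass, with a log2 ratio of -0.18. Orc1, the largest subunit of the origin recognition complex, fell by 0.18 on the log2 scale, with a range of -0.22 to -0.14 (limma adjusted p = 2.62e-05). Orc6, another subunit, had a log2 ratio of -0.02 and did not pass (limma adjusted p = 0.521).

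Polymerase and primase genes were lower by smaller amounts. Of 4 tested, 3 were lower and 1 did not pass, and their median log2 ratio was -0.15. Prim2, the large primase subunit, had -0.30 and -0.36 with AngII in Cy5 and -0.24 and -0.31 with AngII in Cy3, a mean of -0.30 (limma adjusted p = 1.14e-08). Its partner Prim1, the catalytic subunit, had a mean of -0.04 and did not pass (limma adjusted p = 0.332). On every array Prim2 thus lay below Prim1, whose ratios ran from -0.12 to 0.02. Pold1, the catalytic subunit of polymerase delta on the lagging strand, fell by 0.17 on the log2 scale (range -0.29 to -0.07, limma adjusted p = 6.76e-05), and its other probe gave -0.28. Pole, the catalytic subunit of leading strand polymerase epsilon, fell by 0.13 (limma adjusted p = 0.0015), from -0.28 and -0.30 with AngII in Cy5 but 0.11 and -0.05 with AngII in Cy3. Pola1, the catalytic subunit of polymerase alpha, was not well above background on enough arrays to be tested.

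The clamp and its loader showed the widest gaps between the dye orientations. Of 6 genes, 2 were lower, 2 were higher and 2 did not pass. Their median log2 ratio was 0.05 over all arrays, -0.10 on the arrays with AngII in Cy5 and 0.11 on those with AngII in Cy3, so its sign depended on the dye. Pcna, the sliding clamp and a standard marker of cycling cells, had ratios of 0.16 and 0.14 with AngII in Cy5 and of -0.69 and -0.70 with AngII in Cy3. Its mean of -0.27 passed (limma adjusted p = 7.49e-08, and 0.37 with the replicate block), but it was higher in AngII RNA in one orientation and lower in the other, and it did not pass in the authors' deposited table (log2 ratio -0.22, adjusted p = 0.463).

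Rfc1, the large subunit of the loader, had -0.33 and -0.19 with AngII in Cy5 and 0.48 and 0.52 with AngII in Cy3. Rfc5, one of its small subunits, followed the same pattern, with -0.34 and -0.32, then 0.48 and 0.51. Both passed as higher, with means of 0.12 and 0.08 (limma adjusted p = 0.0035 and 0.0299), although the arrays with AngII in Cy5 put both below 0. Rfc4, another small subunit, was the only loader gene below 0 on all 4 arrays, with -0.03 and -0.19, then -0.66 and -0.67 (mean -0.39, limma adjusted p = 1.26e-10, and 0.103 with the replicate block). Rfc2 and Rfc3 did not pass (log2 ratios 0.06 and 0.04), and the other probe of Rfc2 gave -0.17.

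Over all 35 genes the mean of the arrays with AngII in Cy5 and that of the arrays with AngII in Cy3 had opposite signs in 12 (34.3%), where 31.0% of all features did. Among the genes that passed this held for 6, namely Mcm6, Pole, Pcna, Rfc1, Rfc5 and Chaf1b. The median absolute half-difference between orientations was 0.14 for these genes and 0.10 for all features. Of the 22 lower genes, 18 had a mean below 0 in both orientations.

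**Figure D3:**
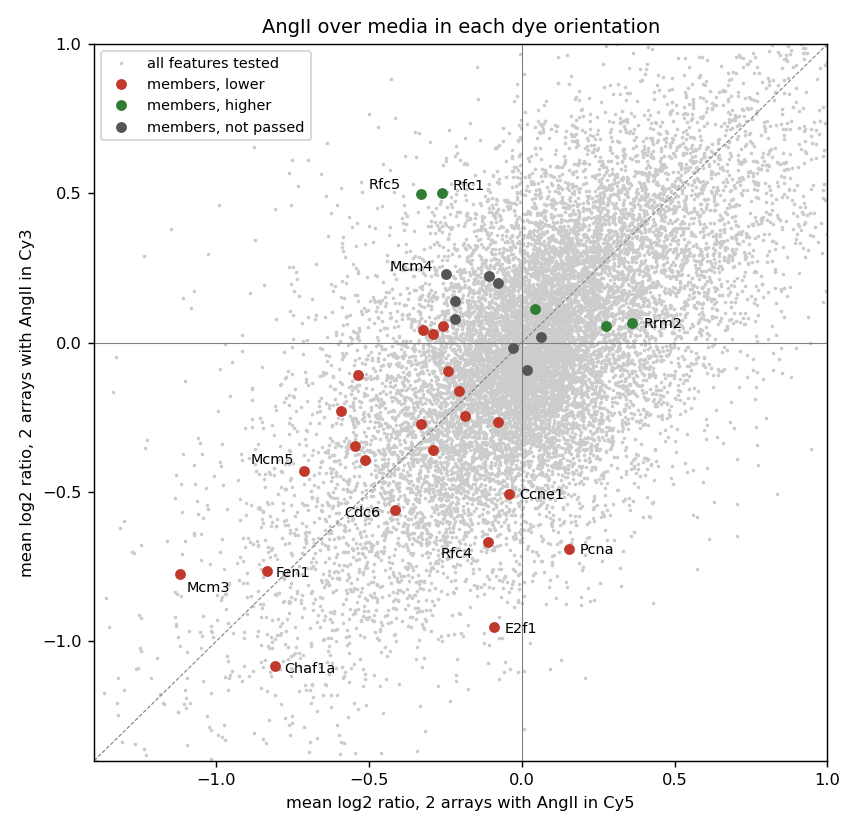
Mean log2 ratio of AngII over media on the 2 arrays with AngII in Cy5 (x axis) against that on the 2 arrays with AngII in Cy3 (y axis), for all tested features within the axis limits (grey) and the replication genes that were lower (red), higher (green) or did not pass (dark grey), with the line of equality dashed. Mcm3, Mcm5, Cdc6, Fen1 and Chaf1a lie in the lower left quadrant, below 0 in both orientations, and Pcna, Rfc1 and Rfc5 lie where the orientations have opposite signs.

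Nucleotide supply genes were not lower. Rrm2, the small subunit of ribonucleotide reductase whose level rises in S phase, had the highest ratio of the 35 genes and was above 0 on all arrays, at 0.33 and 0.39 with AngII in Cy5 and at 0.04 and 0.09 with AngII in Cy3. Its mean was 0.21, or 1.16-fold higher (limma adjusted p = 3.35e-06, and 0.14 with the replicate block). Rrm1, the large subunit of the same enzyme, had -0.12 and -0.10, then 0.24 and 0.21, and did not pass (mean 0.06, limma adjusted p = 0.125). Which subunit had the higher ratio depended on the orientation. Tyms, thymidylate synthase, had a mean of -0.04 and did not pass (limma adjusted p = 0.322), with both orientations again on different sides of 0, at -0.22 and 0.14. Its other probe gave -0.03.

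Genes for finishing and packaging new DNA held the lowest ratios beside Mcm3. Of 6 tested, 4 were lower and 2 were higher, with a median log2 ratio of -0.28. Chaf1a, the large subunit of the CAF-1 complex that places histones on newly made DNA, had -0.71 and -0.90 with AngII in Cy5 and -1.08 and -1.09 with AngII in Cy3. It was lower on every array and 1.93-fold lower on average (SE 0.035 on the log2 scale, limma adjusted p = 1.64e-18), with a mean log2 intensity of 9.90 in AngII RNA and 10.85 in media RNA. Chaf1b, the middle subunit of the same complex, fell by 0.14 on the log2 scale (limma adjusted p = 5.72e-04), from -0.30 and -0.35 with AngII in Cy5 and 0.01 and 0.08 with AngII in Cy3. Chaf1a lay below Chaf1b on each array, though the gap between them was not tested.

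Fen1, the flap endonuclease that trims Okazaki fragments, had -0.75 and -0.91 with AngII in Cy5 and -0.81 and -0.72 with AngII in Cy3. The orientations overlapped, all arrays lay below -0.70, and Fen1 was 1.74-fold lower on average (log2 ratio -0.80, SE 0.034, limma adjusted p = 2.64e-17). Lig1, the ligase that seals the trimmed fragments, had -0.58 and -0.60, then -0.26 and -0.20, a mean of -0.41 (limma adjusted p = 2.74e-11). It was lower on all arrays, more so with AngII in Cy5. Slbp, which binds the stem-loop of replication-dependent histone mRNAs, was higher on all arrays, by a mean log2 ratio of 0.17 (range 0.02 to 0.32, limma adjusted p = 9.04e-05, and 0.183 with the replicate block). Uhrf1, which reads hemimethylated DNA behind the fork, was close to the threshold, with a mean of 0.08 (limma adjusted p = 0.0466), and its other probe gave 0.04.

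The regulators of S phase entry were lower, and for E2f1 and Ccne1 the amount depended on the dye. For Ccne2 it did so little, with means of -0.19 with AngII in Cy5 and -0.25 with AngII in Cy3. E2f1, a transcription factor that drives many replication genes, had -0.14 and -0.04 with AngII in Cy5 and -0.98 and -0.92 with AngII in Cy3. Its mean was -0.52 (limma adjusted p = 3.2e-13), which did not pass with the replicate block (adjusted p = 0.125). A dimmer E2f1 probe was more even, at -0.50 and -0.44, then -0.29 and -0.36, with a mean of -0.40, so both probes were below 0 on all 4 arrays. Ccne1, cyclin E1, which activates Cdk2 at S phase entry, had 0.00 and -0.09, then -0.53 and -0.48 (mean -0.27, limma adjusted p = 5.27e-08, and 0.16 with the block). A dimmer Ccne1 probe gave 0.015 (range -0.09 to 0.08) but was not well above background on enough arrays to be kept. The related Ccne2 fell by 0.22 on the log2 scale (range -0.36 to -0.10, limma adjusted p = 1.91e-05, and 0.0559 with the block), and its dimmer probe gave 0.00.

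Genes that work with these were more evenly divided. Of 46 other replication genes tested, 20 were lower (43.5%), 16 were higher (34.8%) and 10 did not pass, and the median log2 ratio was -0.02. The 5 with the smallest p were all lower, namely the maintenance DNA methyltransferase Dnmt1 (-0.62), the Cdt1 inhibitor geminin, Gmnn (-0.60), the polymerase alpha subunit Pola2 (-0.60), the histone chaperone Nasp (-0.58) and the Mcm-binding protein Mcmbp (-0.57). The subunits of replication protein A, which coats single-stranded DNA, had ratios near 0 in the mean of the 4 arrays. Rpa1 passed at 0.09, from -0.07 with AngII in Cy5 and 0.26 with AngII in Cy3, while Rpa2 (-0.01) and Rpa3 (0.03) did not pass.

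Of 22 other genes of G1/S control, 10 were lower, 9 higher and 3 did not pass (median -0.03). The 5 with the smallest p were the CDK inhibitor Cdkn1c (-0.88), the repressor E2f7 (-0.61), Mycn (-0.55), the pocket protein Rbl2 (0.55) and Myc (-0.48). Cdkn1a, the CDK inhibitor p21, was higher at 0.35, as were the S phase cyclin Ccna2 at 0.40 and Cdk2 at 0.08. No probe was matched to Ccnd1. Of 26 mitosis genes, 15 were lower (57.7%), 6 higher and 5 did not pass, and the median was -0.15. They were led by Ccnf (-1.001), the mitotic transcription factor Foxm1 (-0.59), Incenp (-0.35), Kif23 (-0.35) and Bub3 (-0.34), while the proliferation marker Mki67 did not pass (-0.06). The orientations of Mki67 lay on different sides of 0, at -0.36 with AngII in Cy5 and 0.25 with AngII in Cy3. Top2a stands in both this list and that of other replication genes. Of 11 partners in replication stress and repair, 4 were lower, 5 higher and 2 did not pass (median 0.03). Among those with the smallest p were the checkpoint kinase Atr (0.52), Msh6 (0.34) and Brca2 (0.28).

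**Figure D4:**
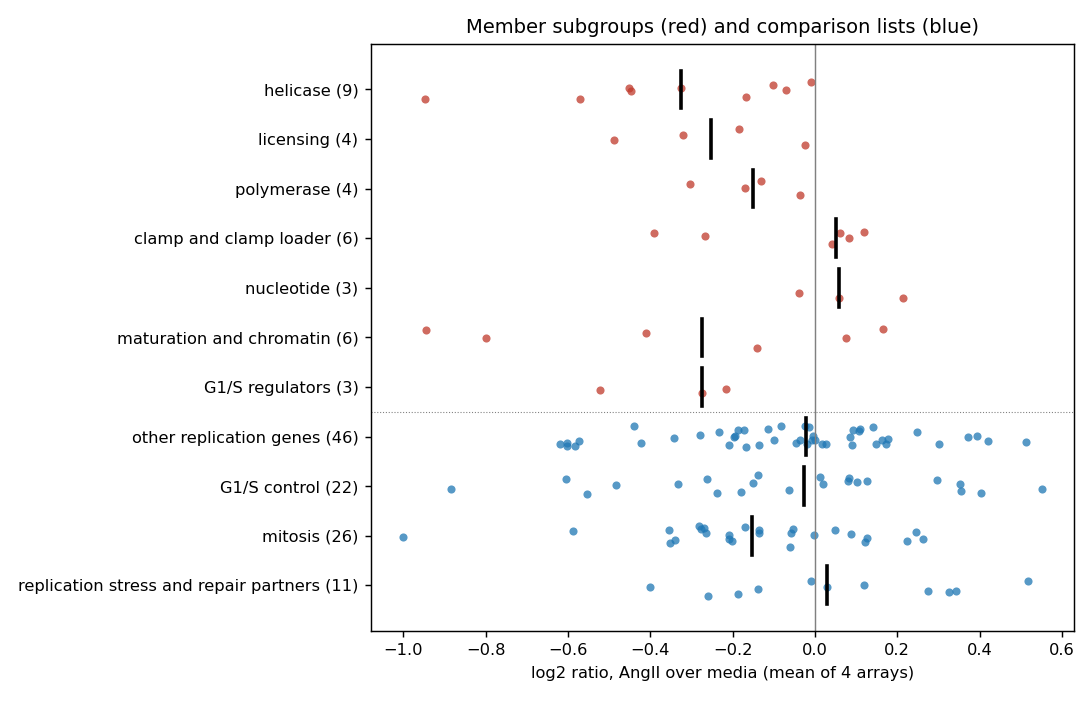
Log2 ratio of AngII over media (x axis, mean of the 4 arrays) of each tested replication gene by role (red) and of each gene of the 4 related lists (blue), with the number tested in brackets and the median of each group as a black bar. The medians of the helicase, the maturation and chromatin and the G1/S regulator genes lie between -0.32 and -0.27, those of the clamp and nucleotide genes at 0.05 and 0.06, and those of the related lists between -0.15 and 0.03.

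In bulk RNA, fewer cells of a type and less RNA per cell cannot be told apart, and markers of other cells differed between the same RNAs. Of the ureteric epithelial markers 15 of 16 were tested (Ret was not well above background), and 8 were lower and 6 higher (median log2 ratio -0.10). Their summed intensity was 246254 to 273780 in AngII RNA (median 260776) and 270975 to 343103 in media RNA (median 316499), with overlapping ranges. Erythroid markers were higher in 7 of 8 tested and lower in none, with a median of 2.06, and their summed intensity was 32273 to 39914 in AngII RNA over the 4 arrays against 6044 to 7172 in media RNA. Stromal markers were higher in 5 of 7 and lower in 1 (median 0.23), with sums of 32047 to 35150 and 22534 to 24175. Of nephron progenitor markers 4 of 6 were lower and 2 higher (median -0.37), with overlapping sums of 4997 to 5792 in AngII RNA and 5034 to 5523 in media RNA. Endothelial markers were lower in 4 of 6 and higher in 1 (median -0.11, sums 1612 to 1822 and 1731 to 2010, Tek not well above background), and leukocyte markers were lower in 2 of 5 and higher in 3 (median 0.33, sums 590 to 622 and 479 to 519). The summed intensity of the 35 replication genes was 126474 to 145683 in AngII RNA and 146955 to 160778 in media RNA, ranges over arrays of the same RNAs that nearly met. Such a sum weighs the brightest genes most. Among the 35 these were Mcm6, Pcna and Mcm4, whose mean ratios changed sign with the dye. The part of the marker genes' cells in the ratios of the replication genes was not tested.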

How the data were processed

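Per the file headers, the images of the two-colour Agilent arrays went through Feature Extraction 10.5.1.1. The deposited intensity columns hold the uncorrected median of each spot and of the background around it. They also hold a processed intensity, from which the scanner software had taken the background and the dye bias. The authors' deposited table gives a log2 ratio per spot, its mean log2 intensity, its adjusted p-value and a call as a score of -1, 0 or 1. Per the submitters' processing notes, limma was used (no version given), and the table's normalisation is not given in the sources used here. Its log2 ratios correlated with those computed here at r = 0.995 across features.

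The tools used here were R 4.3.3 and limma 3.58.1. Median signals were used because the files hold no mean signals, which the design had named. Background was corrected by normexp (offset 50), loess was applied within arrays with control spots at weight 0, outlier spots were left out, spots of a probe were averaged and swapped arrays were turned. Both arrays of a replicate number were averaged before the test of the ratio against 0 (lmFit, eBayes). The threshold was an adjusted p under 0.05, by Benjamini-Hochberg over 15004 features. Of 41174 probes, 19393 were well above background (in at least 0.5 of a probe's spots) for AngII RNA or for media RNA on each of the 4 arrays and were kept. Single channels held between 19028 and 21922 such probes. The brightest probe stood for a gene, and 25097 probes were named through RefSeq (GRCm38.p6). Levels are channel intensities after loess and Aquantile. Precision is limited by the number of arrays. The fit code was run on simulated data in which far fewer features changed than passed here, so that run does not bear on the counts.

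The genes and lists were chosen with earlier results of these data known, so no p is given over a list. All 37 genes are named, as are up to 5 tested genes of each related list with the smallest p and Mki67, Cdk2, Ccna2, Ccnd1, Myc, Cdkn1a, Gmnn, Rpa1, Rpa2 and Rpa3; other names were chosen after their values were seen, and some genes of the lists are not reported here. The labels call the numbered RNAs biological replicates without naming animals or cultures. The pairing of same-numbered RNAs comes from the hybridisations themselves and lies within each ratio. The alternatives were no background correction, median centring, processed signals, no filter or a stricter filter on dim probes, the mean of a gene's probes, a replicate block, a dye term, each dye orientation alone, each replicate left out and the authors' deposited table.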

Additional observations from a re-analysis of the deposited data

How the results depend on the processing

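Of 22 lower genes, 5 passed as lower under every one of the 13 alternatives. The share of all features that did so was not computed, so this count does not set the genes apart. They were Mcm3 (log2 ratio -1.12 to -0.78), Mcm5 (-0.71 to -0.43), Cdc6 (-0.59 to -0.40), Fen1 (-0.89 to -0.74) and Chaf1a (-1.08 to -0.81). With the replicate number as a block, which by construction leaves the difference between dyes in the error, 4644 features passed in place of 11586, as did 10 lower and 0 higher replication genes (13 and 0 at an unadjusted p under 0.05 in limma). Of all features 14.7% were lower and 16.3% higher with the block. With each replicate left out, 2211 to 2956 features passed, 5 to 9 genes were lower and 0 to 0 higher. Higher genes numbered 3 without background correction (39.4% of all features), with processed signals (37.4%), without the filter on dim probes (18.7%) and with AngII in Cy5 alone (38.1%). In the authors' deposited table they numbered 2 (35.6% of all features), in place of 5 (39.1%) in the first fit. Median centring gave 19 lower and 7 higher genes, and AngII in Cy3 alone 18 and 7. Of all features 33.7% were lower and 39.5% higher with median centring, and 39.9% and 35.5% with AngII in Cy3 alone. The median log2 ratio of -0.17 became -0.20 without background correction, -0.26 with processed signals, -0.24 with AngII in Cy5 alone, -0.11 with AngII in Cy3 alone and -0.20 in the authors' deposited table. It lay below 0 in every alternative. Among genes that passed, directions turned only in single dye orientations. In those, Mcm4 and Tyms, which had not passed, also passed with the opposite sign, and genes that had not passed changed sign elsewhere too, such as Mcm4 (0.05), Orc6 (0.05), Prim1 (0.02) and Tyms (0.03) with median centring and Rfc2 (-0.06) with the mean of probes. With AngII in Cy5 alone Pcna was at 0.15, Rfc1 at -0.26 and Rfc5 at -0.33. With AngII in Cy3 alone Mcm4 was at 0.23, Mcm6 at 0.0549, Pole at 0.0275, Tyms at 0.14 and Chaf1b at 0.0420. For these shifts the cause was not tested beyond the dye and the error term named. Pola1 and dim second probes were limited by signal over background.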

Other observations

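Subunits of the complexes named in the report that fell outside its gene list are given here, chosen after their values were seen. In the origin recognition complex, where Orc1 was lower, Orc5 was higher on all 4 arrays (log2 ratio 0.51, range 0.32 to 0.75, limma adjusted p = 3.07e-13), as was Orc3 (0.37, range 0.25 to 0.53, limma adjusted p = 1.86e-10). Orc2 was higher by 0.17 (range 0.12 to 0.24), and Orc4 by 0.08 with the arrays on both sides of 0. In the GINS complex, where Gins2 was lower, Gins3 was higher by 0.18 (range 0.06 to 0.26) and Gins4 by 0.11 (range 0.06 to 0.17). The kinase gene Cdc7, whose product fires licensed origins, fell by 0.42 on the log2 scale (range -0.54 to -0.25, limma adjusted p = 1.87e-11). Its activator Dbf4 fell by 0.19, with 1 array above 0. Among other genes of nucleotide supply, Dut did not pass (-0.01), and Tk1 fell by 0.08 on the log2 scale (range -0.12 to -0.02, limma adjusted p = 0.0329).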
